A study of Mus musculus with 9 samples.

Results

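Gfi1 and Evi5 are neighbouring genes on mouse chromosome 5, and the CTCF peaks of the 400 kb window chr5:108050000-108450000 (mm9) that holds them are described here. Peaks of 8 CTCF libraries that overlapped the window were merged where they shared at least 1 bp, which gave 22 regions of the 39574 regions found genome-wide. The regions are numbered 1 to 22 in chromosome order. Region 10 had a peak in none of the 4 libraries from cells without Tcf1 and Lef1 and in all 4 wild-type libraries, and region 20 had a peak in all 8. The window had been selected on the presence and fold of its CTCF peaks in these libraries, so both are given as a description, without a test. Occupancy had been mapped by CUT&RUN, in which a nuclease tethered to an antibody cuts out the DNA around the bound protein, in CD8+ T cells sorted from mouse spleen. There were 2 libraries for each of 4 groups, namely Tcf1-/-Lef1-/- cells (DKO) after 72 h in vitro with IL-7 and IL-15, wild-type (WT) cells after the same 72 h, DKO cells at 0 h and WT cells at 0 h. A single IgG library, of WT cells at 0 h, was the control. Both genotypes carried the hCD2-Cre transgene, active in lymphocytes, and a Rosa26 GFP reporter, and the floxed Tcf1 and Lef1 alleles were what set DKO apart. Cells of every group had been sorted as GFP+ TCRbeta+ CD62Lhi CD44lo-med CD8+. The age and sex of the animals were not given in the labels used here, nor whether replicates came from separate animals. The files hold no expression values, so the cell type and the loss of Tcf1 and Lef1 could not be checked in them.

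CTCF is a zinc-finger protein that binds insulators and loop anchors, where it halts loop extrusion by cohesin. Gfi1 encodes a zinc-finger transcriptional repressor of blood and lymphoid cells that acts in T cell development. Evi5 encodes a TBC-domain protein, a class of regulators of Rab GTPases, and takes its name from a retroviral integration site in mouse tumours. Tcf1 and Lef1 are related DNA-binding factors with an HMG box that act in T cell development and in the upkeep of naive CD8+ cells. In RefSeq's gene order for GRCm38.p6, the protein-coding genes Glmn and Rpap2 precede Gfi1, and Evi5, Ube2d2b, Rpl5 and Dipk1a follow it. A gene annotation of mm9 was not used here, so no region is assigned to an exon, an intron or a promoter.

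The deposited peak lists hold no sequence, and the start regions of the pair of genes are shown because they are the named landmarks of the window. Each runs from 250 bases before to 50 after an annotated start, 5′ to 3′ on the gene's strand, from RefSeq. Their coordinates are in GRCm38.p6 and cannot be set against the mm9 coordinates of the peaks. Gfi1 has a start region at chr5:107725756-107726055 (minus strand) and another at chr5:107724294-107724593 (minus strand), and that of Evi5 lies at chr5:107868999-107869298 (minus strand). Capitals mark CCCTC, the pentamer from which CTCF is named, on either strand, so that GAGGG is the same match on the opposite strand.
Gfi1, first: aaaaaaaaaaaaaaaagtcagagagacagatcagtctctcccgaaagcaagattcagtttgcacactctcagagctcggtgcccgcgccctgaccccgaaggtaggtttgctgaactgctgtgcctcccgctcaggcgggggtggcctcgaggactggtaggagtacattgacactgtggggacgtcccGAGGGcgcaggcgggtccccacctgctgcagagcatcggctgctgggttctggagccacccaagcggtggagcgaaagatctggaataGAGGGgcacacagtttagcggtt
Gfi1, second: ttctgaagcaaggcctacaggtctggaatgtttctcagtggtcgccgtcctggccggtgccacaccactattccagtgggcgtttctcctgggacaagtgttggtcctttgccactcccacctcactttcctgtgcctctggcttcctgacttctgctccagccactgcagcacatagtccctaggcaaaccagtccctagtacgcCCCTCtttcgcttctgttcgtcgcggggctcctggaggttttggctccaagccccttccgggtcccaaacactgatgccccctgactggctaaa
Evi5: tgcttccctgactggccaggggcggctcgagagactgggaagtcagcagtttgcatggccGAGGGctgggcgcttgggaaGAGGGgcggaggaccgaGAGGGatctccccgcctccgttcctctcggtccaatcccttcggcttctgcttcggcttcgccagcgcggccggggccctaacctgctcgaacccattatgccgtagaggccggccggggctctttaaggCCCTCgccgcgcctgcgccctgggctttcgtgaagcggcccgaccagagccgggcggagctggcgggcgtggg
The pentamer occurred 2 times in the first Gfi1 start region, 1 time in the second and 4 times in that of Evi5, and it was present in 66% of 32851 start regions of that length. No other motif was searched. A match describes these letters and says nothing of binding.

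DKO cells after 72 h had the lowest mean count of peaks in the window, with replicate 2 level with a WT library. DKO cells at 72 h had 1 peak in replicate 1 and 7 in replicate 2, and WT cells at 72 h had 7 and 13. At 0 h, DKO cells had 12 and 14 peaks, and WT cells had 17 and 16. The mean after 72 h was 4 ± 4.24 peaks for DKO and 10 ± 4.24 for WT, and the mean before culture was 13 ± 1.41 for DKO and 16.5 ± 0.71 for WT (SD, n = 2 each). The genotypes met at 7 peaks at 72 h and did not overlap at 0 h. In the 400 kb before the window, DKO cells at 0 h had a peak at 7 and 6 regions and WT cells at 9 and 8. In the 400 kb after it the values were 7 and 7 for DKO and 8 and 6 for WT. Windows elsewhere were not counted, so the order at 0 h cannot be called particular to this one.

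Lists with few peaks in the window were mostly short lists. The 72 h lists held 10339 and 16234 peaks for DKO and 17335 and 26630 for WT. Those of 0 h held 30309 and 31392 for DKO and 32585 and 30967 for WT. Per 10000 peaks of its own list, DKO replicate 1 at 72 h had 0.97 peaks in the window (exact Clopper-Pearson 95% interval 0.024 to 5.39, for counting error only). DKO replicate 2 had 4.31 and the WT libraries 4.04 and 4.88 at 72 h. At 0 h the DKO shares were 3.96 and 4.46 per 10000, and the WT shares 5.22 and 5.17. At 0 h the mean was 4.21 ± 0.35 per 10000 for DKO and 5.19 ± 0.04 for WT (SD, n = 2 each), and the libraries of the genotypes did not overlap. The counting intervals of single libraries were wider than that gap, and no test of the shares was made. These shares were not computed for other windows. The part of list length in the counts below was not tested beyond lists cut to equal length. The IgG list held 5 peaks, of which 0 were on chromosome 5.

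**Figure D1:**
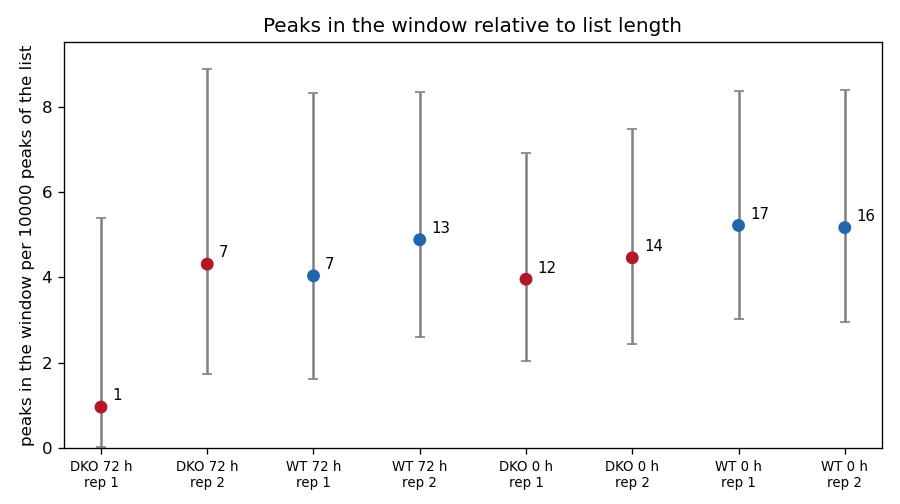
Peaks in the window per 10000 peaks of each library's list (vertical axis) for the 8 CTCF libraries (horizontal axis, DKO red, WT blue). Bars are exact 95% intervals and the number beside each point is the count of peaks, from 1 in DKO replicate 1 at 72 h to 17 in WT replicate 1 at 0 h.

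Many regions of the window were found in few libraries. Of the 22 regions, 7 (31.8%) had a peak in 1 library, against 14.7% of all regions, and 1 (4.55%) had a peak in all 8 libraries, against 24.2% of all regions. Without DKO replicate 1 at 72 h, 5 regions had a peak in every remaining library. The genome-wide share without that library was not computed, and the 24.2% is not its match. The median region of the window was found in 4 libraries and was 606 bp wide, against 5 libraries and 747 bp over all regions. The 400 kb before the window held 9 regions and the 400 kb after it 8, with medians of 6 and 5 libraries. DKO replicate 1 at 72 h had a peak at 1 of the 22 regions, at 2 of the 9 before and at 1 of the 8 after. No test of these shares was made.

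Region 10, chr5:108269411-108270277, set the genotypes apart at both times. DKO cells had no peak there in any of their 4 libraries. WT cells had a fold of 7.63 and 12.9 at 72 h and of 13.9 and 14.9 at 0 h, where fold is the authors' enrichment of a peak over its local background and every CTCF list starts at a fold of 4. Within its own list, ranked by the authors' −log10 p, the peak stood at percentile 71.2 and 86.7 in WT at 72 h and at 77.1 and 83.5 in WT at 0 h, where 100 is the strongest peak. By −log10 p it was the highest-ranked peak of the window in both WT libraries at 72 h and in WT replicate 2 at 0 h. By fold, region 20 was the highest of the window in each of these libraries. The summits of region 10 lay within 91 bp of each other in the 4 WT libraries.

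The nearest regions on either side of region 10 were present in DKO cells. Region 9, chr5:108222901-108223564, has its centre 46.6 kb before that of region 10, and region 11, chr5:108287889-108288507, has its centre 18.4 kb after it. At region 9, DKO cells after 72 h had no peak in replicate 1 and a fold of 6.46 in replicate 2, and WT cells after 72 h had no peak in replicate 1 and 7.64 in replicate 2. The 0 h folds of region 9 were 13.5 and 11.9 for DKO and 8.75 and 7.82 for WT. At region 11 after 72 h, DKO cells had no peak in replicate 1 and a fold of 4.08 in replicate 2, against 4.58 and 9.88 in WT cells. The 0 h folds of region 11 were 10.4 and 11.5 for DKO and 8.66 and 7.64 for WT. At 0 h the DKO libraries were thus the higher ones in fold at both neighbours. Genome-wide, 28.2% of regions with a peak in all 4 libraries at 0 h had this order by fold, and 20.3% by percentile. At region 11 the percentiles of replicate 1 were close, at 46.4 in DKO and 45.5 in WT.

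A peak in all 4 libraries of one genotype and none of the other is rare in the lists. Genome-wide, 0.498% of the 39574 regions were found in all WT and no DKO libraries, and 0.0126% in all DKO and no WT libraries. The window held 1 such WT-only region, region 10, and 0 DKO-only regions, and the flanking stretches held 0 of either. Leaving out WT replicate 1 of 72 h gave a count of 2. Among the 197 WT-only regions of this kind, region 10 ranked 4 by its mean percentile over the WT libraries (79.6, against a median of 38.0). The window was chosen with these values known, so neither the count nor the rank is evidence that the locus is exceptional. The rank rests on −log10 p, and no rank by fold was made.

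**Figure D2:**
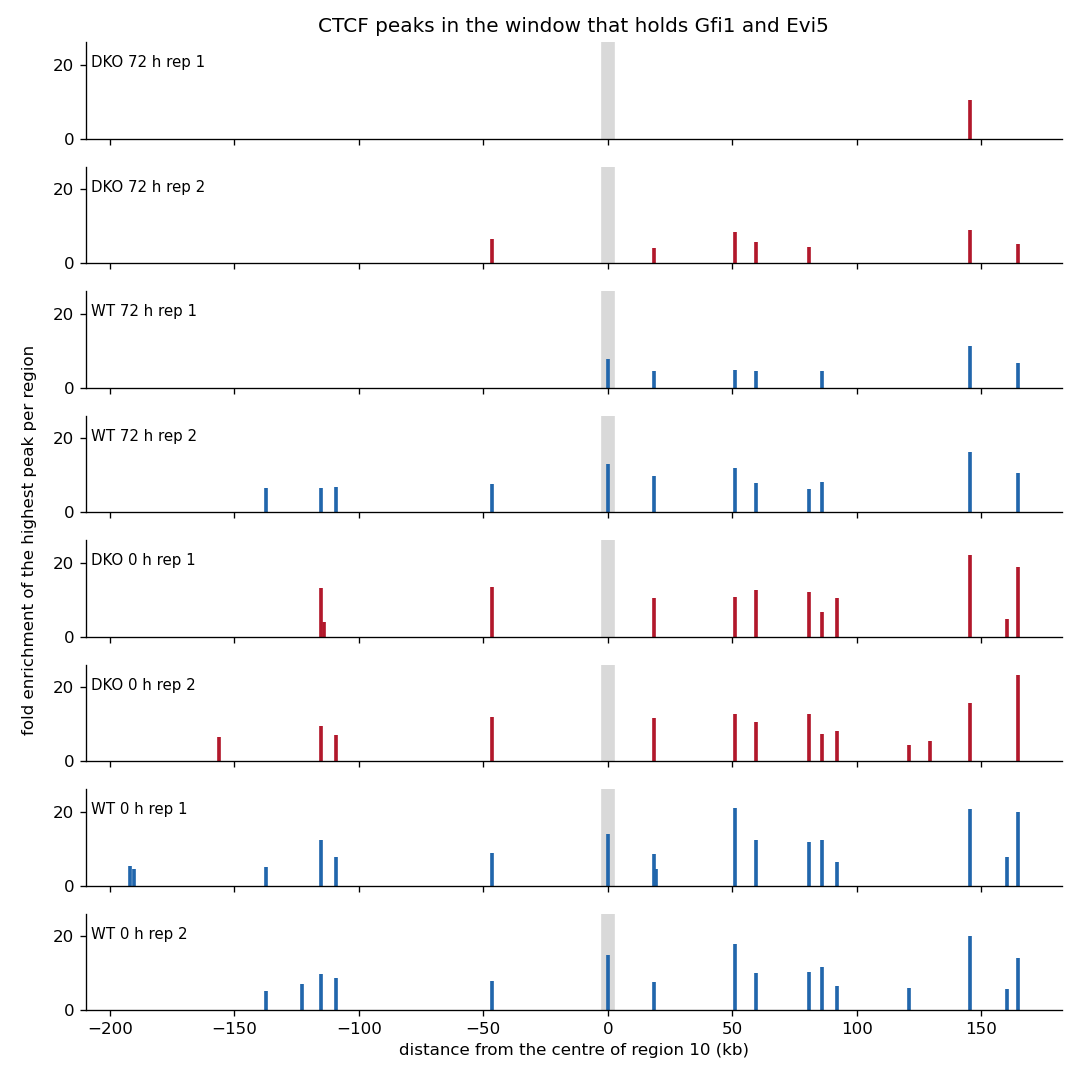
Fold enrichment of the highest peak per region (vertical axis) by distance from the centre of region 10 in kb (horizontal axis), with a row for each library (DKO red, WT blue, 72 h above 0 h). The grey band marks region 10, where the 4 WT libraries have a fold of 7.63 to 14.9 and the 4 DKO libraries have no peak.

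The 0 h libraries bear on whether naive cells that lack Tcf1 and Lef1 carry other CTCF peaks than WT cells. The window held 2 WT-only regions, with a peak in both WT and no DKO libraries at 0 h, among the 22 regions with a peak in any library at 0 h (9.09%). Genome-wide this share was 5.03%. DKO-only regions numbered 0, where the genome-wide share was 2.81%. Beside region 10, the WT-only region was region 4, chr5:108132374-108132892, with no peak in DKO and a fold of 4.94 and 5.26 in WT at 0 h. It also had a peak of fold 6.59 in WT replicate 2 at 72 h and in no other library. Region 4 was weak, at a mean percentile of 16.1 over the WT libraries at 0 h against 80.3 for region 10. Of the 1932 WT-only regions at 0 h, the median was 23.1, and region 10 ranked 16. This rank also comes from values known when the window was chosen, and is no evidence that region 10 is exceptional. Leaving out WT replicate 2 gave 5 WT-only regions, while leaving out DKO replicate 1 or 2 gave 2 or 1 DKO-only regions.

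Where all 4 libraries had a peak at 0 h, the folds of the genotypes were set side by side. This was so at 10 regions, and at 4 of them (regions 9, 11, 15 and 17) both DKO libraries had a higher fold than both WT libraries, where the genome-wide share was 28.2%. At 2 of them (regions 13 and 16) both DKO libraries had a lower fold, where the share was 15%. The same regions stood apart in the same direction by rank percentile, where the genome-wide shares were 20.3% for a higher and 22.8% for a lower percentile in DKO. The lowest DKO and highest WT percentiles were nearly equal at region 15 (80.6 and 80.5) and region 11 (46.4 and 45.5). They were further apart at region 9 (47.9 and 33.5) and region 17 (29.4 and 21.8). Fold is relative to each library's own background, so these are orders of deposited values and not measured changes.

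Regions 13 and 16 had the lower DKO values. At region 13, chr5:108320384-108321195, the fold at 0 h was 10.8 and 12.8 in DKO, against 21.0 and 17.8 in WT, at rank percentiles of 56.9 and 63.5 in DKO and 78.4 and 74.5 in WT. At region 16, chr5:108354872-108356203, the fold at 0 h was 6.54 and 7.40 in DKO, against 12.2 and 11.7 in WT, at percentiles of 34.8 and 41.3 in DKO and 66.3 and 67.0 in WT. Both WT libraries stood above both DKO libraries on either scale. Region 13 did not keep this order at 72 h, where DKO had no peak and a fold of 8.40, and WT had 4.73 and 11.9.

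Regions 9, 11, 15 and 17 had the higher DKO values at 0 h. At region 17, chr5:108361376-108362502, the fold was 10.5 and 8.17 in DKO, against 6.38 and 6.52 in WT. At region 15, chr5:108350165-108351197, it was 12.2 and 12.8 in DKO, against 11.7 and 10.4 in WT, a gap smaller than that between the WT libraries. The other 4 regions overlapped between genotypes. Region 6, chr5:108154003-108155351, had 13.1 and 9.41 in DKO and 12.2 and 9.67 in WT at 0 h. Region 14, chr5:108329089-108329912, had 12.5 and 10.4 in DKO and 12.3 and 10.02 in WT. Region 22, chr5:108434108-108434784, had 18.7 and 23.2 in DKO and 19.9 and 14.0 in WT, and region 20 is given with the shared sites. Regions 15, 16 and 17 lie within a stretch of 12338 bp and carry WT-higher and DKO-higher values side by side.

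**Figure D3:**
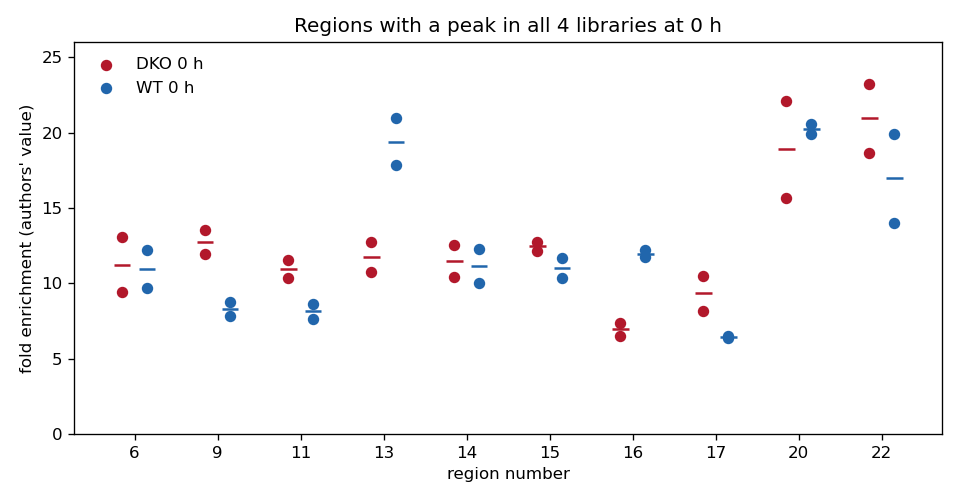
Fold enrichment (vertical axis, the authors' value) in DKO (red) and WT (blue) libraries at 0 h for the 10 regions with a peak in all 4 libraries (horizontal axis). Points are libraries and short lines are means of 2. DKO lies below WT at regions 13 and 16, and above it at regions 9, 11, 15 and 17.

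At 72 h, DKO and WT cells were compared again after culture with the cytokines. The window held 2 WT-only regions among 12 with a peak in any library at 72 h (16.7%), where the genome-wide share was 9.53%. DKO-only regions numbered 0, where the genome-wide share was 0.0454%. The WT-only regions were region 10 and region 16, and region 16 had no DKO peak and a fold of 4.52 and 8.20 in WT at 72 h. With the 10339 top peaks of each list, region 10 was the 1 WT-only region left. Leaving out DKO replicate 2 gave 6 WT-only regions, and leaving out WT replicate 1 gave 5. Genome-wide shares were not computed with a library left out, for these or the other such counts.

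In DKO cells, 72 h and 0 h were compared to ask which peaks remain after culture. The window held 3 regions with a peak in both 0 h and no 72 h libraries (regions 6, 16 and 17) among 16, or 18.8%, where the genome-wide share was 33.8%. It held 0 regions found in both 72 h and no 0 h libraries, where the share was 0.135%. Region 6 had no peak in DKO at 72 h, against folds of 13.1 and 9.41 in DKO at 0 h. In WT it had no peak and 6.64 at 72 h. With the 10339 top peaks of each list, none of these 3 was called, and the 0 h-only regions were 15 and 22. The count of 0 h-only regions was 9 without DKO replicate 2 at 72 h, 7 without DKO replicate 1 at 0 h and 5 without DKO replicate 2 at 0 h.

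In WT cells, the same comparison gave 2 regions found in both 0 h and no 72 h libraries (regions 17 and 21) among 19, or 10.5%, where the genome-wide share was 14.2%. Regions found in both 72 h and no 0 h libraries numbered 0, where the share was 0.634%. Region 21, chr5:108430127-108430487, had no WT peak at 72 h, against a fold of 7.77 and 5.60 in WT at 0 h. It had a further peak of 4.64 in DKO replicate 1 at 0 h. Region 17 was called at 0 h alone in both genotypes with the lists as deposited and in neither with lists of equal length, where region 6 was the WT region called at 0 h alone. The count of 0 h-only regions was 7 without WT replicate 2 at 72 h, and 4 and 5 without WT replicates 1 and 2 at 0 h.

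Where WT cells had peaks in all 4 libraries, fold was lower at 72 h at most regions. Both 72 h libraries had a lower fold than both 0 h libraries at 6 of 7 such regions (10, 13, 14, 16, 20 and 22), where the genome-wide share was 75.8%, and a higher fold at 0, where it was 1.22%. Region 22 had a fold of 6.64 and 10.6 in WT at 72 h, against 19.9 and 14.0 in WT at 0 h. Region 14 had 4.55 and 7.82 in WT at 72 h, against 12.3 and 10.02 in WT at 0 h. Region 11 was the one that overlapped between times. By rank percentile 4 of the 7 kept the order, where the genome-wide share was 51% for a lower and 6.65% for a higher percentile, and regions 10 and 20 did not.

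Region 20, chr5:108414865-108417224, was the 1 region with a peak in all 8 libraries. After 72 h its fold was 10.6 and 9.02 for DKO and 11.1 and 16.1 for WT. Before culture it was 22.1 and 15.7 for DKO and 20.6 and 19.9 for WT. It held the only window peak of DKO replicate 1 at 72 h, at percentile 81.7 of that list. At 72 h both DKO libraries lay below both WT libraries in fold, where the genome-wide share was 50.6% for a lower and 0.186% for a higher fold, and the percentiles (81.7 and 51.4 in DKO, 70.3 and 75.0 in WT) overlapped, where the share was 44% for a lower and 1.94% for a higher percentile. In DKO, both 72 h values lay below both 0 h values, where the genome-wide share was 97.6% for a lower and 0.193% for a higher fold. The DKO percentiles (81.7 and 51.4 at 72 h, 74.3 and 59.7 at 0 h) overlapped, where the share was 74.3% for a lower and 2.48% for a higher percentile. The peak was 445 and 527 bp wide in DKO at 72 h, against 2360 and 2252 bp in DKO at 0 h. In WT the highest peak was 570 and 1025 bp wide at 72 h, against 2338 and 2273 bp at 0 h. WT replicate 2 at 72 h had a second peak in the region, chr5:108416256-108417145, of fold 7.77. That second peak lay inside the span of the single WT peaks of 0 h. Widths were not compared between times genome-wide, so the narrower peaks at 72 h cannot be called particular to region 20. The summit of the highest peak stayed within 87 bp across the 8 libraries.

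DKO replicate 2 at 72 h had a peak at 6 further regions. These were regions 9, 11, 13, 14, 15 and 22, with folds from 4.08 at region 11 to 8.40 at region 13. At region 14 the fold was 5.85 in that library, and it was 4.26 at region 15 and 5.30 at region 22. WT replicate 2 at 72 h had a fold of 6.23 at region 15. WT replicate 1 at 72 h, with the nearest list length, also had 7 peaks, at regions 10, 11, 13, 14, 16, 20 and 22. The pair shared 5 regions, and regions 9 and 15 were in the DKO library alone while regions 10 and 16 were in the WT library alone.

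**Figure D4:**
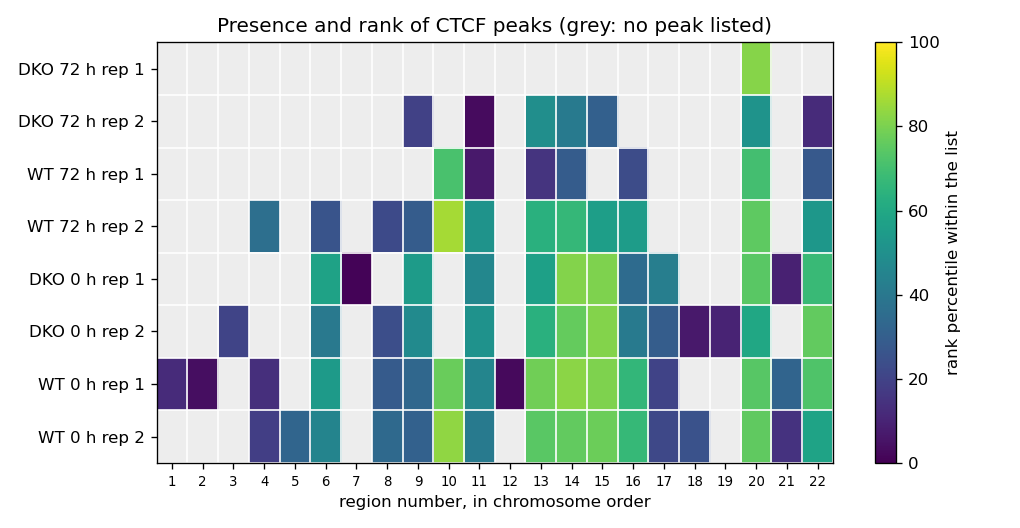
Rank percentile of each peak within its own list (colour, 100 strongest, by −log10 p) for the 22 regions (horizontal axis, in chromosome order) in the 8 libraries (rows, 72 h above 0 h, DKO above WT). Grey cells have no peak. Region 20 is filled in all 8 rows, and region 10 in the 4 WT rows alone.

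Of the regions not yet described, region 8 was found in 4 libraries, region 18 in 2 and the rest in 1, with folds of at most 8.73. Region 8, chr5:108160421-108160829, had no peak in either DKO library after 72 h and a fold of 6.86 in WT replicate 2 alone. Its 0 h fold was 7.03 in DKO replicate 2 alone, against 7.67 and 8.73 in WT. Region 18, chr5:108390446-108391038, was found at 0 h alone, in DKO replicate 2 (4.29) and WT replicate 2 (5.94). The 7 regions of a single library had folds from 4.07 to 7.05. Of these, 3 were in DKO at 0 h (regions 3, 7 and 19) and 4 in WT at 0 h (regions 1, 2, 5 and 12), with 0 at 72 h. The 0 h lists are the longer ones. This split was not counted genome-wide, so it cannot be called particular to the window.

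Regions just inside and outside the edges of the window are given for its limits. The last region before it, chr5:108039485-108041740, ended 8260 bp short of the edge and had a peak in all 8 libraries, with folds from 17.2 to 55.6. The first region inside, region 1 at chr5:108077946-108078246, began 27946 bp past the edge and had a single peak of fold 5.28 in WT replicate 1 at 0 h. The last inside, region 22, ended 15216 bp before the other edge. The first region after it, chr5:108458850-108459627, began 8850 bp beyond and was found in 5 libraries, with folds from 6.19 to 9.77. These were the DKO and WT libraries of 0 h and WT replicate 2 at 72 h. A window wider by 10 kb on either side would thus have added these outer regions.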

How the data were processed

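CTCF peaks were analysed in 8 CUT&RUN libraries of mouse splenic CD8+ T cells, 2 per genotype and time, with 1 IgG library. The submitters' processing notes name the build mm9 and the tools MACS2 2.1.1, Bowtie2 2.2.5 and FastQC. The control and the thresholds set for MACS2 are not given in the sources used here. Since the authors deposited 1 peak list per library, replicates were not pooled. In the deposited lists, fold is the enrichment over local background, and fold, −log10 p and −log10 q all come from the authors' peak caller. The score column as deposited, a whole number per peak, was not used. Absolute read depth is unknown, so no interval on fold was given, and an absent peak shows only that none was listed.

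Peaks on chromosomes 1 to 19 and X were kept, and those sharing 1 bp or more between the 8 lists were joined into regions. Groups and replicate numbers came from the sample titles. A region was called for a group where every library of that group and none of the other had a peak, and the share of all regions with a peak in any of the libraries compared that was called the same way stands beside each count. Where a library had more than 1 peak in a region, the one of highest −log10 p was taken. Rank percentiles were computed within each list. Values of all libraries were given for regions called in any comparison, found in all 8 libraries, highest in a list or just inside an edge. Regions just outside the edges were given by their range of fold. Other regions were added after their values were seen, as was the count of regions whose folds did not overlap. The window and its regions were chosen with earlier results of these data known. Motifs were searched in RefSeq start regions (GRCm38.p6), where both genes matched by symbol. Alternatives were lists of equal length, peaks with a −log10 q of 5 or more, overlap of 50% of the shorter peak, summits within 100 bp and each library left out in turn. Merging and calling were tested on simulated lists. Python 3.11.15, pandas 2.3.3, numpy 2.4.6 and scipy 1.17.1 were used.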

Additional observations from a re-analysis of the deposited data

How the results depend on the processing

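Region 10 was the WT-only region over both times under each of the 4 alternative definitions and lists. These alternatives drop or regroup listed peaks and cannot add one, so they could not test its absence from DKO. Its WT peaks had a −log10 q of at least 16.0 and summits within 91 bp, inside the limits of 5 and 100 bp. Merged regions of the window numbered 7 with the 10339 top peaks per list, and then 0 had a peak in all 8 libraries. With equal lists the WT-only count at 72 h was 1, and in WT cells (17335 peaks per list) 1 region was found at 72 h alone (region 11) and 1 at 0 h alone (region 6). In DKO cells the 0 h-only regions with equal lists were 15 and 22 in place of 6, 16 and 17. The DKO 0 h-only count was 5 at a −log10 q of at least 5, and the WT 0 h-only count was 1 with summits within 100 bp. With a single library left out, merged regions ranged from 19 to 22 and regions found in all libraries from 1 to 5. The WT-only count then ranged from 3 to 5 at 0 h, from 2 to 6 at 72 h and from 1 to 2 over both times, and the DKO-only count from 0 to 2 at 0 h. The 0 h-only count ranged from 3 to 9 in DKO and from 2 to 7 in WT. A definition that rests on 1 library of a group in place of 2 is met more easily. No genome-wide share was computed with a library left out, so these ranges cannot be judged against one. The fold orders of region 20 at 72 h and over time in DKO were seen at 1 region each and at 0 by rank percentile. No paired analysis was possible because the counts come from no test and the labels do not say what libraries of the same replicate number share. Short lists of few window peaks limit every count at 72 h.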

Other observations

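In 6 of the 8 libraries the strongest window peak by −log10 p was not the strongest by fold, and in both DKO libraries at 72 h it was region 20 by either column. In WT replicate 1 at 0 h, region 10 had a fold of 13.9 with a −log10 p of 48.1, and region 20 a fold of 20.6 with a −log10 p of 43.4. In that list region 10 stood at percentile 77.1 by −log10 p and 65.1 by fold, and region 20 at 73.9 and 81.0. Region 14 stood at 81.5 and 76.5 by −log10 p in DKO at 0 h, where it stood at 58.8 and 50.4 by fold. In WT at 0 h it stood at 82.5 and 76.2 by −log10 p, where it stood at 59.5 and 51.1 by fold. The WT libraries placed region 10 by fold at percentiles of 46.1 and 70.7 after 72 h and of 65.1 and 70.0 before culture. The place of region 10 among the regions of a list thus depends on which of the deposited columns is used.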
